A study of Mus musculus with 1 sample.

Results

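The transcripts of 10 receptor genes were followed across single alveolar macrophages (AMs): Marco, Msr1, Cd36, Mrc1, Mertk, Axl, Olr1, Scarb1, Scarb2 and Lrp1. They were chosen by name as the scavenger and efferocytosis receptors among the 11918 genes listed in the data, and all 10 were listed. AMs were sorted as CD45+CD11c+SiglecF+ cells from the lungs of 1 mouse carrying floxed Hdac3 alleles without Cre (Hdac3fl/fl), which the study used as WT; the line had been backcrossed from FVB/NJ to C57BL/6 over 10 generations and the mouse was 8 to 12 weeks old. The lungs were digested for 45 min at 37 °C before the sort, and 5000 cells were loaded on the 10x Genomics 3′ assay. The library of cells lacking Hdac3 was not analysed here, so there was no comparison of genotypes, no replicate and no test between animals.

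AMs live on the airway side of the alveoli, where they take up surfactant, inhaled particles, microbes and dying cells. Scavenger receptors bind modified lipoproteins, polyanions and microbial surfaces, and are grouped by structure into class A (Marco and Msr1), class B (Cd36, Scarb1 and Scarb2) and class E (Olr1). Dying cells expose phosphatidylserine, which reaches the kinases Mertk and Axl through the bridging molecules Gas6 and protein S, while Lrp1 takes up cargo marked by calreticulin and other ligands. Mrc1 (CD206) is the mannose receptor, an endocytic lectin that is also a standard surface marker of AMs.

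The values covered 2055 cells with 1143 to 8603 UMIs (unique molecular identifiers, each counting 1 captured transcript) per cell and a median of 3278. Levels are given as UMIs per 10000 UMIs of the cells concerned, with exact 95% intervals that cover counting error only. At the median depth 1 UMI in a cell was worth 3.05 per 10000, so most of these receptors were measured near the limit of what 1 cell can show. The 3′ assay counts a transcript once whatever its length, so levels of different genes were compared on this scale. Differences between genes in capture were not measured, and the intervals do not cover them. Of the 16 AM markers that are not among the 10 receptors, all were listed, with UMIs in 31.7% to 100% of cells. Siglecf and Itgax, the genes of 2 sort markers, had UMIs in 41.4% and 61.1% of cells. The study describes removing some genes before its analysis. A gene that was not listed, here or below, had no value and cannot be called absent from these cells. Among markers of other cells, none of the 5 eosinophil genes was listed, the 3 lymphocyte genes listed of 10 had UMIs in 0.146% to 3.21% of cells, and the 6 interstitial macrophage genes listed of 11 in 0.146% to 5.79%. The 4 dendritic cell genes listed of 7 had UMIs in at most 0.779% of cells and the 3 neutrophil genes listed of 7 in at most 10.1%. The monocyte and the epithelial and endothelial genes had UMIs in at most 6.86% of cells, apart from Nr4a1 (70.6%) and Epcam (58.1%). A single cell stood apart with 2391 lymphocyte marker UMIs per 10000, nearly all Jchain, against at most 31.5 in any other cell. It had 3952 UMIs, of which 1 was Cd36, 1 was Scarb2 and none belonged to the other 8 receptors.

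Mrc1 was the most abundant receptor transcript, and Scarb1 and Msr1 were found in few cells. At least 1 UMI was found in at least 50% of cells for 5 of the 10 genes, Mrc1, Olr1, Axl, Cd36 and Scarb2, against 6.04% of all genes. Summed over all cells the order of levels was Mrc1, Olr1, Cd36, Axl, Marco, Scarb2, Mertk, Lrp1, Scarb1 and Msr1. Neighbours in this order differed beyond counting error except Cd36 and Axl (ratio of UMIs 1.02, interval 0.973 to 1.08) and Mertk and Lrp1 (1.07, 0.999 to 1.16). Even so, ranks are those of 1 mouse.

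**Figure D1:**
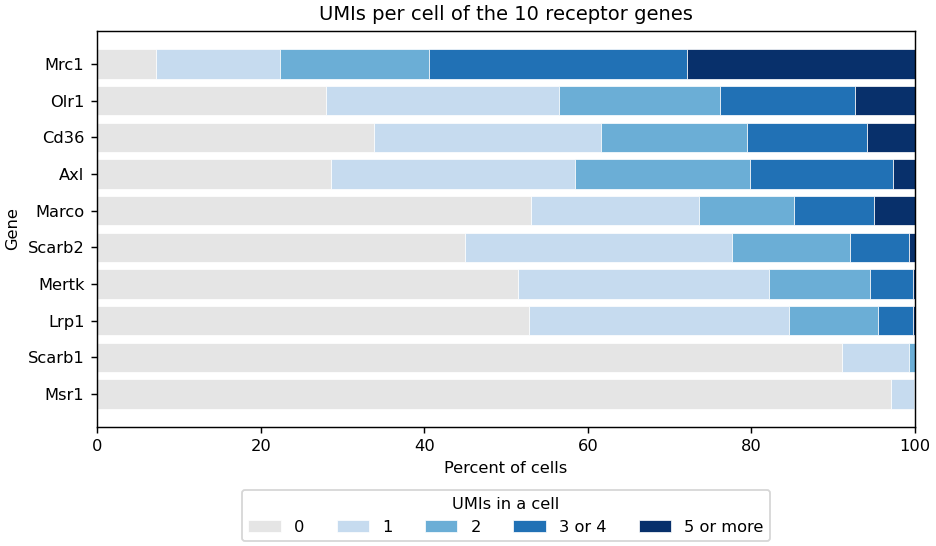
UMIs per cell of the 10 receptor genes. Each bar splits the 2055 cells by the number of UMIs of 1 gene (percent of cells, x axis), with genes ordered by summed UMIs. Mrc1 was undetected in 149 cells and had 5 or more UMIs in 572, whereas Marco was undetected in 1091 cells and yet had 5 or more UMIs in 103.

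Mrc1 had 6981 UMIs, 9.66 per 10000 (9.44 to 9.89), and ranked 165th of all genes by mean. It was found in 1906 cells, 92.7% (91.5% to 93.8%), with 0 UMIs in the lowest cell, a median of 3 and a highest of 17. When each cell of at least 2000 UMIs was reduced to 2000, Mrc1 was still expected in 83.1% of the 1756 cells that were deep enough.

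Among the class A scavenger receptors, which bind bacteria and particles through collagenous trimers, Marco was abundant and Msr1 was not. Marco had 2304 UMIs, 3.19 per 10000 (3.06 to 3.32), in 46.9% of cells (44.7% to 49.1%), with a median of 0 and a highest of 15. Msr1 had 62 UMIs, 0.0858 per 10000 (0.0658 to 0.110), in 60 cells or 2.92% (2.24% to 3.74%), and at most 2 in a cell. Transcripts of other lung cells also had low shares: S100a8 of neutrophils had UMIs in 10.1% of cells, Sftpc of alveolar type II cells in 6.86% and Jchain of plasma cells in 3.21%. The share for Msr1 lay below these. A share of cells cannot tell background from low expression, so neither was read from it.

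Of the class B receptors, Cd36, which takes up fatty acids and oxidised lipoproteins, had 3081 UMIs, 4.27 per 10000 (4.12 to 4.42), in 66.1% of cells (64.0% to 68.2%). Its median was 1 UMI and its highest 18, the highest of any of the 10 genes. Scarb2 (LIMP-2), which carries glucocerebrosidase to the lysosome, had 1820 UMIs, 2.52 per 10000 (2.41 to 2.64), in 55.0% of cells, with a median of 1 and a highest of 8. Scarb1 (SR-BI), a receptor for high-density lipoprotein, had 201 UMIs, 0.278 per 10000 (0.241 to 0.320), in 8.95% of cells (7.75% to 10.3%) and at most 3 in a cell. Its share lay between those of Sftpc and S100a8, and here too background and low expression could not be told apart.

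Olr1 (LOX-1), the class E lectin-like receptor for oxidised low-density lipoprotein, was the receptor transcript next to Mrc1. It had 3464 UMIs, 4.80 per 10000 (4.64 to 4.96), in 72.1% of cells (70.1% to 74.0%), with a median of 1 and a highest of 15. Mrc1 exceeded it 2.02-fold (1.93 to 2.1).

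Both kinases that recognise dying cells through bridging molecules were found, Axl at the higher level. Axl had 3010 UMIs, 4.17 per 10000 (4.02 to 4.32), in 71.4% of cells, with a median of 1 and a highest of 11. Mertk had 1516 UMIs, 2.1 per 10000 (1.99 to 2.21), in 48.6% of cells, with a median of 0 and a highest of 6. Tyro3, the other kinase of this family, was not among the genes listed. Lrp1, the large endocytic receptor of the LDL receptor family, had 1411 UMIs, 1.95 per 10000 (1.85 to 2.06), in 47.3% of cells, with a median of 0 and a highest of 6.

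In the GRCm38 annotation (GENCODE M21) the 10 genes lay on 7 chromosomes, with 3 on chromosome 5: Cd36 at chr5:17781690-17888801, Scarb2 at chr5:92441314-92506833 and Scarb1 at chr5:125277087-125341094, all on the minus strand. Mrc1 (chr2:14229392-14332057) and Mertk (chr2:128698956-128802894) were on the plus strand of chromosome 2. Marco (chr1:120474538-120505024), Olr1 (chr6:129485244-129507165), Axl (chr7:25757273-25788705), Msr1 (chr8:39581685-39642673) and Lrp1 (chr10:127538161-127621148) were on minus strands. No exon of another gene overlapped the last 300 bases of any of them, and none of the 98-base sequences there occurred in a transcript of another gene.

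Promoters of 8 of the 10 genes (250 bases before to 50 after the start, RefSeq, GRCm38.p6) were read from the reference; Msr1 and Scarb1 had no entry. Those of Marco, Cd36 and Olr1 are shown because these genes varied most between cells in the comparisons that follow. The listed start of Cd36 lies inside the annotated gene, which has further starts upstream. Capitals mark matches on either strand to GAGGAA (the core of PU.1 sites), AGGTCA (a nuclear receptor half-site) and TGANTCA (AP-1); none of these matches overlap.
Marco, chr1:120504975-120505274, minus strand: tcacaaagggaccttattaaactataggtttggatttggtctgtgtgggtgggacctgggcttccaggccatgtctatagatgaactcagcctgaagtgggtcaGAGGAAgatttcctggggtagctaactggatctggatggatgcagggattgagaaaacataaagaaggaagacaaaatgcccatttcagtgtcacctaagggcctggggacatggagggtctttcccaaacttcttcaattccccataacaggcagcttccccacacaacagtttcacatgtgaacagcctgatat
Cd36, chr5:17835847-17836146, minus strand: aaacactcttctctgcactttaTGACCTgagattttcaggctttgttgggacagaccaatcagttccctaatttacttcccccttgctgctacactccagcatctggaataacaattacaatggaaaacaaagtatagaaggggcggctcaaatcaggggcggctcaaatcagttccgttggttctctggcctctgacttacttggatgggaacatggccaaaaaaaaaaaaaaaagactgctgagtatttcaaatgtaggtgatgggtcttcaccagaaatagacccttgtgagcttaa
Olr1, chr6:129507116-129507415, minus strand: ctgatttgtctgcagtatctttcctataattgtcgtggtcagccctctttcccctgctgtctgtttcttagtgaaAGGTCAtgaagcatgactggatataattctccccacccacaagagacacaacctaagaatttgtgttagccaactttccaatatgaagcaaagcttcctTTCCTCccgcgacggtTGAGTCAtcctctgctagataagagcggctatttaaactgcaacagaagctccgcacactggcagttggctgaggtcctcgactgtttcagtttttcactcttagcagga
GAGGAA was present in the promoters of 4 of the 8 genes (Marco, Mrc1, Axl and Olr1) and in 28.3% of all 32851 promoters. AGGTCA was present in Cd36 and Olr1 and in 16.3% of all promoters. TGANTCA was present in Olr1 only, starting 60 bases before the start site, and in 7.81% of all promoters. Neither CACGTG (an E-box) nor TATAAA (the core promoter element), held by 7.15% and 13.6% of all promoters, was found in the 8. The Marco promoter held no CpG and the Scarb2 promoter 28, against a median of 7 over all promoters. These matches describe the letters in these windows and are not sites.

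The cell-to-cell spread differed widely among receptors of like level. It was measured as the coefficient of variation (CV) of UMIs per 10000 over cells after the part due to counting was removed. Over the 4231 genes with a mean of at least 0.1 UMIs per cell the median was 0.375, with quartiles of 0.195 and 0.577, and 8 of the receptors passed this filter. Marco had a CV of 1.17, above 97.2% of these genes and above 97 of the 100 genes nearest to it in mean, whose median was 0.312. Counting alone at one common level would have put Marco in 1316 cells rather than 964, and at 5 or more UMIs in 25.7 cells rather than 103. These 103 cells (5.01%) held 31.0% of its UMIs.

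**Figure D2:**
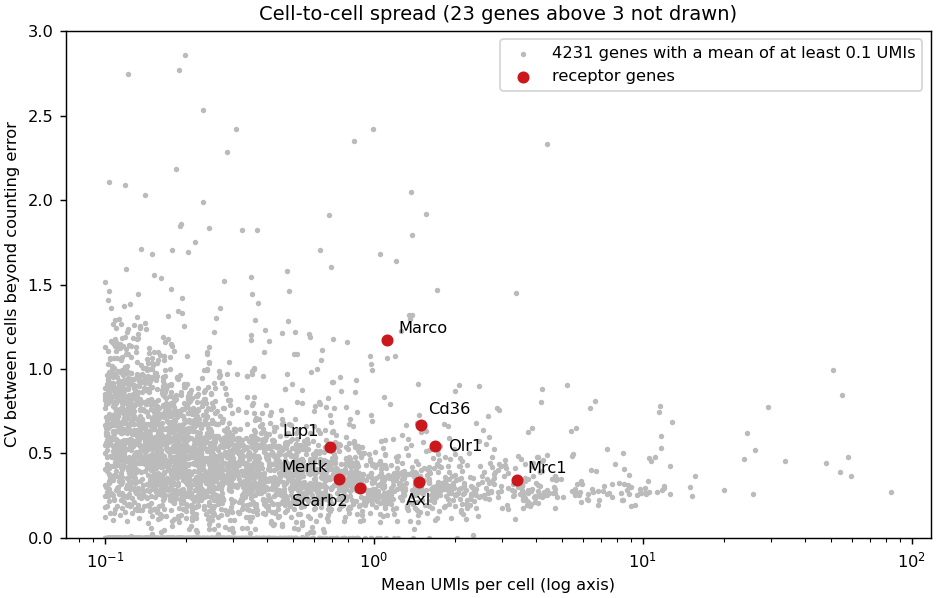
CV between cells beyond counting error (y axis) against mean UMIs per cell (x axis, log scale). Grey points are the genes with a mean of at least 0.1 UMIs per cell, 23 of which lie above 3 and are not drawn, and red points are the 8 receptor genes that passed this filter. Marco, at 1.17, stood above the cloud at its mean, and Scarb2, at 0.295, within it.

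Cd36 came next, with a CV of 0.667, above 92 of its 100 neighbours in mean, and 121 cells with 5 or more UMIs against 69.3 from counting alone. Olr1 had a CV of 0.544, above 88 of 100, and 151 such cells against 100.1. Lrp1 had 0.541, above 83 of 100, although its cells with 5 or more UMIs numbered 5 against 3.85.

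The other 4 receptors were spread much as genes of their level. Mertk had a CV of 0.347, Mrc1 of 0.343, Axl of 0.333 and Scarb2 of 0.295, each above 40 to 62 of 100 neighbours. Mrc1 was at 0 UMIs in 149 cells and at 5 or more in 572, against 566 from counting alone. Cells without an Mrc1 UMI were thus about as frequent as shallow counting gives, since 1913 cells with a UMI were expected and 1906 observed.

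A cell had UMIs of a median of 5 of the 10 receptors, from 0 in 3 cells to 9 in 13 cells, and no cell had all 10. The mean was 4.08 in the shallowest 25% of cells and 6.16 in the deepest 25%. To take depth into account, the cells were divided into 10 strata by total UMIs and the number expected with independent detection within strata was computed. The variance of the number per cell was 2.62, against 2.38 expected (ratio 1.1). Cells with 2 or fewer receptors numbered 126 against 95.6 expected, and cells with 7 or more 417 against 393.

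**Figure D3:**
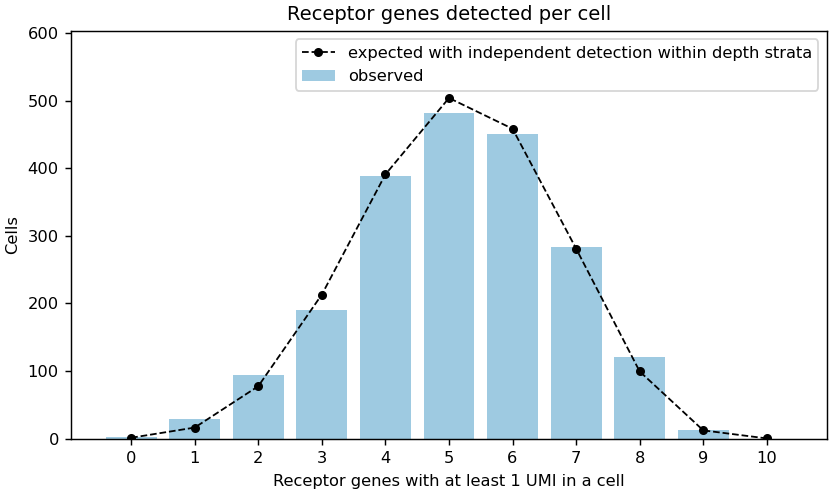
Receptor genes with at least 1 UMI in a cell (x axis) and number of cells (y axis). Bars are the observed cells and black points the numbers expected if the 10 genes were detected independently within 10 strata of depth. The observed distribution peaked at 5 in 482 cells and was slightly wider than expected at both ends.

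Pairs of receptors were detected together little more often than depth gave. Of the 36 pairs in which both genes were found in 5% to 95% of cells, which leaves out Msr1, 7 had an odds ratio within depth strata of 5 to 4 or more, against 13.7% of all gene pairs in that window. Among genes found in 40% to 95% of cells 6 of 28 pairs did, against 8.5% of all such pairs. The median over the 36 pairs was 1.11 and the range 0.727 to 1.57, with 27 pairs above 1. For all gene pairs in the same window the median was 1.01.

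Mrc1 took part in 6 of the 7 pairs. Mrc1 and Olr1 had an odds ratio of 1.57 and were both found in 1399 cells, against 1385 expected. The counting interval of the joint share (66.0% to 70.1%) does not measure the error of this difference. Mrc1 had odds ratios of 1.40 with Cd36, 1.36 with Lrp1, 1.33 with Axl, 1.28 with Scarb1 and 1.27 with Marco. Of these the Scarb1 value rests on a gene found in 8.95% of cells, where background and low expression could not be told apart. The pair without Mrc1 was Axl and Lrp1, with 1.32 and 739 joint cells against 712 expected. Because only 149 cells lacked Mrc1, these odds ratios rested on few cells. With every cell reduced to 2000 UMIs only 2 pairs reached 5 to 4, and those of Mrc1 with Marco (0.970) and with Axl (0.939) were below 1.

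Receptors of the same family were not found together more than others. The odds ratio was 1.03 for Mertk and Axl, with 738 joint cells against 735 expected. Within class B it was 0.865 for Cd36 and Scarb2, 1.19 for Cd36 and Scarb1, and 1.03 for Scarb1 and Scarb2. The lowest value in the window was 0.727, for Scarb1 and Lrp1, with 78 cells against 90.8. Marco and Msr1, outside the window, shared 34 cells against 31.4.

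**Figure D4:**
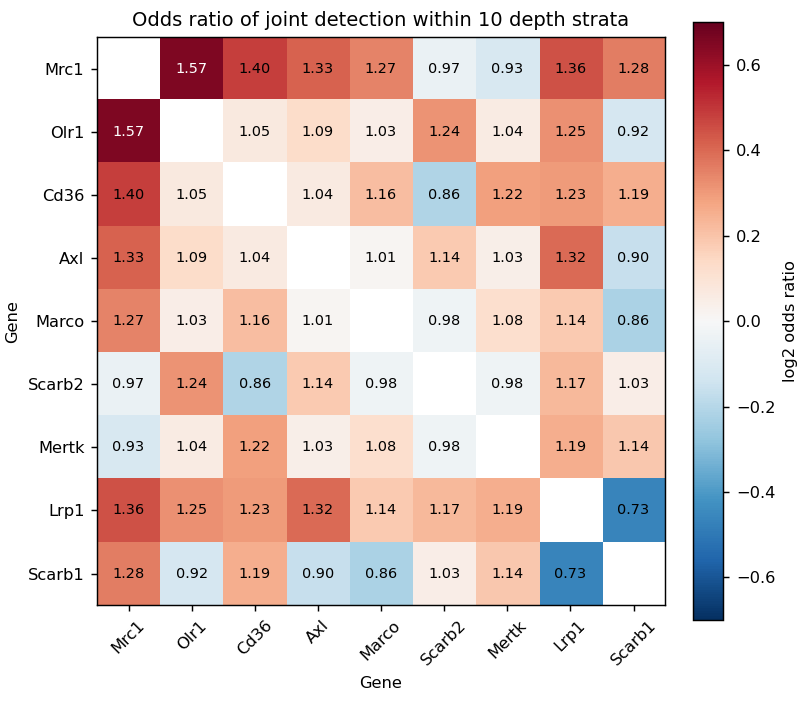
Odds ratio of joint detection of 9 receptor genes (Msr1 left out for its low share), within 10 strata of cells by total UMIs. Red marks pairs found together more often than expected and blue less often, with the odds ratio printed in each cell. Values ran from 0.727 to 1.57, and 6 of the 7 at 5 to 4 or above lay in the Mrc1 row.

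Correlations between receptor levels across cells were low. The log values were regressed on the log of total UMIs and on the mitochondrial share of each cell, since all points share 1 library and these 2 quantities, and correlated over the 2055 cells. Among the 28 pairs of the 8 receptors that passed the filter on the mean, 3 reached a Pearson r of 0.05, against 2.23% of all such gene pairs and 5.82% of pairs of genes with a mean of at least 0.5 UMIs, to which these 8 belong. They were Mrc1 and Olr1 (0.073), Cd36 and Lrp1 (0.061), and Axl and Lrp1 (0.053). The median of the 28 was 0.024 and the lowest was −0.025, for Mertk and Scarb2. In counts this sparse, correlations of this size are no finding. The variance over cells was 1.06 (Scarb2) to 2.26 (Marco) times that of counting alone. Counting error thus holds r low, and a low r cannot show that levels were unrelated.

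The genes most like each receptor were named as the 5 with the highest and the 3 with the lowest r among genes with a mean of at least 0.1 UMIs per cell. All r values were below 0.16, and they are given as descriptions. Levels of these genes in cells with and without a receptor UMI came from the same cells as r. The direction of such differences thus follows largely from the choice by r and is not separate evidence. For Cd36 the highest were Ccl6, a chemokine of AMs (0.157), Gpnmb, a glycoprotein of lipid-laden macrophages (0.146), the cholesterol exporter Abcg1 (0.134), the lysosomal saposin precursor Psap (0.133) and Lgals3 (0.124). Gpnmb was at 1.15 per 10000 in cells with a Cd36 UMI and 0.695 in cells without, a ratio of 1.65. Abcg1 was at 12.7 against 10.8. The lowest for Cd36 were Dbi (−0.133), Wfdc21 (−0.129) and the histone variant H2afz (−0.115).

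For Marco the highest were Ccl6 (0.126), the AM marker Car4 (0.102), Wfdc21 (0.098), the neutrophil chemokine Cxcl2 (0.094) and Spp1 (0.089). The lowest were the cell cycle inhibitor Cdkn1a (−0.103), S100a6 (−0.097) and Trim25 (−0.087). S100a6 was at 0.351 per 10000 in cells with a Marco UMI and 0.940 in cells without, and Wfdc21 was at 11.2 against 9.49. Wfdc21 thus stood among the highest for Marco and among the lowest for Cd36, while Ccl6 led both.

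For Olr1 the highest were the hyaluronan receptor Cd44 (0.121), the cytokine Tnf (0.111), mt-Co1 (0.108), Cxcl2 (0.105) and the immediate-early gene Egr1 (0.1). Tnf was at 1.49 per 10000 in cells with an Olr1 UMI and 0.710 in cells without, a ratio of 2.1. Cxcl2 was at 13.3 against 8.41 and Egr1 at 2.59 against 1.59. Among the lowest for Olr1 were Ubb (−0.112), which encodes ubiquitin, and Rps6 (−0.101), which encodes a ribosomal protein.

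For Mrc1 the highest were Cd44 (0.159), mt-Co1 (0.142), Aplp2 (0.126), Serp1 (0.124) and the nuclear RNA Malat1 (0.123), and the lowest Ifi27l2a (−0.117), Naca (−0.107) and Eif1 (−0.101). Ifi27l2a, an interferon-induced gene, was at 0.537 per 10000 in the 1906 cells with an Mrc1 UMI and 1.72 in the 149 without. Transcripts used to judge RNA quality moved with Mrc1, since mt-Co1 was at 77.9 against 61.2 and Malat1 at 173 against 138. The part of RNA quality in these correlations was not tested.

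For Axl the highest were Lyz2 (0.101), Lpcat3, Cybb, S100a11 and Tbc1d10b (0.079), and the lowest Rps6 (−0.092), Rnf5 and Egr1 (−0.089). Egr1 was at 2.13 per 10000 with an Axl UMI and 2.94 without, so it stood on the other side than for Olr1. For Mertk they were Tmcc1 (0.095), Arhgef3, Cd44, Iqgap1 and Ly75 (0.091), and the lowest Cst3 (−0.098), Rpl9 and H2-DMa (−0.080). Cst3 (cystatin C) was at 8.20 against 10.4.

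For Lrp1 the highest were Txnip (0.107), Colgalt1, Malat1, Ccl6 and Rassf3 (0.090), and the lowest Rpl23a (−0.080), Rps15a and Mrpl21 (−0.076). For Scarb2 the highest were Mylip (0.086), Pole4, Slc38a6, Lpin1 and the lipoprotein lipase Lpl (0.078), and the lowest Pim1 (−0.085), PISD and Ergic3 (−0.078).

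Other genes of the uptake pathway, taken from lists of known components, placed the receptors in context. Of 12 bridging molecules 9 were listed, and 2 were found in at least 50% of cells, namely Calr (73.1%) and Anxa1 (62.7%). Pros1, which encodes protein S, had UMIs in 45.5% of cells (1.91 per 10000), Apoe in 9.0% and Mfge8 in 0.730%. Gas6, the other ligand of Axl and Mertk, was not among the listed genes, nor were C1qc and Cd5l.

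Of 16 other uptake receptors 11 were listed and 3 were found in at least 50% of cells: Cd47 (94.0%) and its receptor Sirpa (79.4%), which restrain uptake, and the integrin chain Itgb2 (57.0%). The phosphatidylserine receptor Timd4 had UMIs in 0.0973% of cells and Trem2 in 15.6%. Of 18 other scavenger and pattern receptors 13 were listed and 3 passed 50%: Tlr2 (74.4%), Cd14 (72.5%) and Cd68 (54.8%). Cd163, Stab1, Stab2 and Clec7a were not among the listed genes, so they had no values and their absence from the cells was not shown.

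Downstream, all 12 genes of the phagosome and lysosome were listed and 8 were found in at least 50% of cells, led by Ctsd (99.3%). Of 15 engulfment and efflux genes 14 were listed and 2 passed 50%, Abcg1 (92.3%) and Rac1 (83.3%). Of the 4 proteases known to shed such receptors none passed 50%, with Adam17, which cleaves MERTK, at 29.2% and Adam10 at 27.5%.

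Joint detection was also examined for 12 pairs of a receptor and a gene of these lists. The odds ratio within depth strata was 0.950 for Mertk and Pros1, 1.08 for Axl and Pros1, 1.08 for Lrp1 and its chaperone Lrpap1, 1.11 for Lrp1 and Calr, and 1.09 for Cd36 and its regulator Pparg. Larger values were found for Cd36 with Abcg1 (1.74), Mrc1 with Abcg1 (1.44), Marco with Tlr2 (1.31), Cd36 with Ctsd (1.27), Olr1 with Tlr2 (1.23) and Scarb2 with Lamp1 (1.19). The lowest was Cd36 with Tlr2 (0.769). All 12 pairs examined had an r between −0.040 and 0.134.

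The levels were then compared between ranges of cells. For each of 5 gene lists that hold none of the receptors, the 103 cells (5%) with the largest share of UMIs from the list were set against the other 1952. These are ranges and not cell types, and 14 to 114 cells lay near each limit. The 8 receptors with a mean of at least 0.1 UMIs per cell were read as higher at 1.5-fold and lower at 0.667-fold, and intervals cover counting error only.

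**Figure D5:**
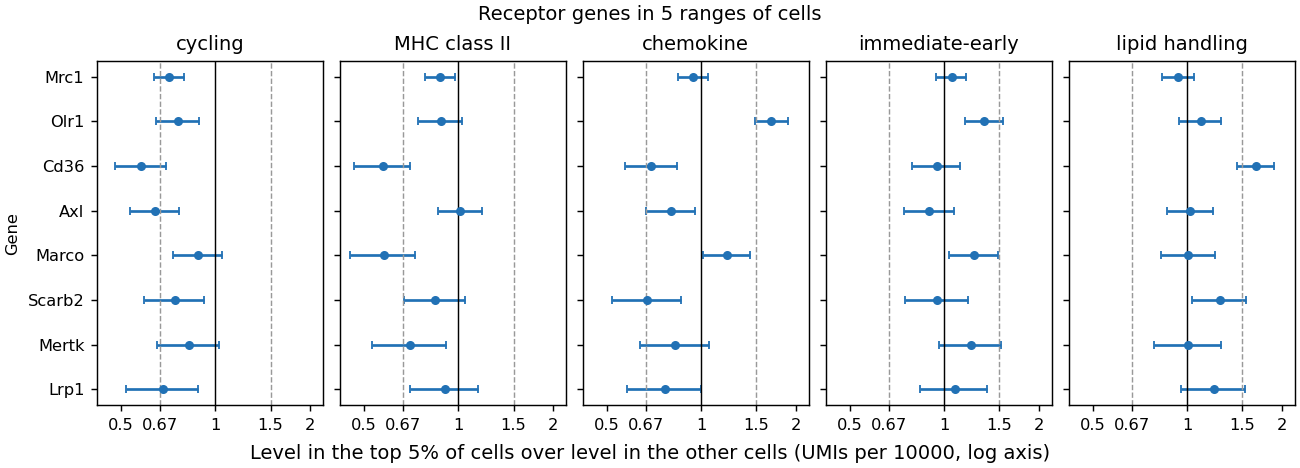
Level of the 8 receptor genes that passed the filter on the mean, in the top 103 cells by each of 5 gene lists, over the level in the other 1952 cells (x axis, log scale). Points are ratios of UMIs per 10000, bars exact 95% intervals for counting error, and dashed lines 1.5-fold and 0.667-fold. All 8 points lay below 1 in the cycling range, Olr1 reached 1.67 in the chemokine range and Cd36 1.66 in the lipid handling range.

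In cycling cells (22 genes of S phase and mitosis) all 8 receptors were below 1. Their median fold was 0.727, against 0.989 over all genes tested, of which 51.4% were below 1. Cd36 was at 2.55 per 10000 in the range and 4.38 outside it, 0.581-fold (0.479 to 0.699), and Axl at 2.74 against 4.26, 0.643-fold (0.534 to 0.768). These were the 2 receptors read as lower, against 9.26% of all genes, and none was read as higher, against 10.4%. Lrp1 was at 0.682-fold (0.521 to 0.878), Mrc1 at 0.713-fold (0.636 to 0.797), Scarb2 at 0.742-fold and Olr1 at 0.758-fold. Marco, at 0.880-fold (0.732 to 1.05), and Mertk, at 0.824-fold (0.650 to 1.03), had intervals that reached 1. Cycling cells were deeper, with a median of 4293 UMIs against 3234, and at 2000 UMIs per cell the fold was 0.686 for Cd36 and 0.701 for Axl, so neither passed, while Lrp1 did at 0.625. Olr1 was then at 0.953 and the other 4 at 0.744 to 0.853. In cells with at most 5% mitochondrial UMIs those that passed were Cd36 (0.596) and Lrp1 (0.630), with Axl at 0.676. The part of depth in these values was not tested. With the top 10% of cells, none passed 0.667 (Cd36 0.688, Axl 0.721).

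In the range for MHC class II (6 genes of antigen presentation) Cd36 and Marco were low. Cd36 was at 2.51 per 10000 against 4.36, 0.575-fold (0.465 to 0.704). Marco was at 1.89 against 3.26, 0.579-fold (0.452 to 0.731). These 2 of 8 were read as lower, against 10.5% of all genes, and none as higher, against 1.89%. Mertk was at 1.5 against 2.13, 0.704-fold (0.532 to 0.915), whereas Axl did not differ beyond counting error, at 4.22 against 4.16 (1.01-fold, 0.860 to 1.19). The range held the cell rich in Jchain. No other cell had over 31.5 lymphocyte marker UMIs per 10000. With the Jchain-rich cell left out and the range cut again, the folds were 0.614 for Cd36 and 0.575 for Marco. That cell held 1 Cd36 UMI and no Marco UMI, so these shifts are not its contribution alone. Marco was at 0.801-fold when the top 10% of cells were taken.

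In the chemokine range (9 inflammatory chemokine and cytokine genes, among them Cxcl2, Ccl3, Tnf and Il1b) Olr1 was high. It was at 7.74 UMIs per 10000 in the range and 4.63 outside, 1.67-fold (1.48 to 1.88). Its median was 2 UMIs per cell against 1, and at a fixed 2000 UMIs it was expected in 71.5% of cells against 56.1%, with 89 of the 103 cells deep enough. It was 1 of 8 read as higher, against 3.74% of all genes. The fold was 1.83 at 2000 UMIs per cell and 1.38 with the top 10% of cells.

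No receptor was read as lower in the chemokine range, against 10.5% of all genes. Scarb2, at 1.73 against 2.56, came nearest at 0.673-fold (0.518 to 0.861), followed by Cd36 at 0.694-fold (0.571 to 0.836) and Lrp1 at 0.767-fold. Marco was at 3.82 against 3.15, 1.21-fold (1.02 to 1.43). Mrc1 did not differ beyond counting error, at 9.13 against 9.70.

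In the immediate-early range (13 genes such as Fos, Junb and Dusp1, which digestion of tissue can induce) none of the 8 was read as higher or lower, against 4.86% and 7.92% of all genes. Olr1 was at 6.34 against 4.72, 1.34-fold (1.16 to 1.54), and Marco at 3.93 against 3.15, with an interval of the ratio from 1.04 to 1.49. The other 6 had intervals that held 1. This range shared 34 of its 103 cells with the chemokine range, and the other pairs of ranges shared 1 to 6. Msr1, which did not pass the filter on the mean, had no UMI in the 103 cells, and the interval of its ratio (0 to 1.27) held 1.

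In the lipid handling range (9 genes, among them Fabp4, Plin2, Lpl and Cidec) Cd36 was high. It was at 6.86 per 10000 against 4.14, 1.66-fold (1.44 to 1.90), with a median of 1 UMI in both and a highest of 18 in both. It was 1 of 8 read as higher, against 3.1% of all genes, and none was read as lower, against 7.75%. Scarb2 was at 3.16 against 2.49, 1.27-fold (1.03 to 1.55). The remaining 6 had intervals that held 1, Mrc1 at 0.935-fold among them. The range had a median of 2883 UMIs against 3292 outside. The fold of Cd36 was 1.23 at 2000 UMIs per cell and 1.44 in cells with at most 5% mitochondrial UMIs, so it passed 1.5 in neither.

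Cd36 thus had the widest range of levels over the 5 ranges, from 0.575-fold to 1.66-fold, and Mrc1 stayed between 0.713-fold and 1.06-fold.

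The other genes of the uptake lists with a mean of at least 0.1 UMIs were read in the same way, beside the shares of all genes given for each range. In the cycling range 4 of 44 were lower and 2 higher. Calr was at 2.16 per 10000 against 4.77, 0.453-fold (0.367 to 0.553), and Ctsd at 14.1 against 23.1, 0.610-fold (0.564 to 0.660). Lower genes numbered 4 of 44 in the MHC class II range, 3 of 44 in the chemokine range, 4 of 44 in the immediate-early range and 1 of 41 in the lipid handling range. Higher genes numbered 2 of 41 in the lipid handling range and 0 in the other 3.

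Receptor levels moved with the depth and the mitochondrial share of a cell. In the deepest 25% of cells (median 5424 UMIs) Mrc1 was at 8.81 per 10000 and in the shallowest 25% (1896 UMIs) at 11.6, a ratio of 0.758 (0.707 to 0.815). Lrp1 was at 0.629 (0.540 to 0.732) and Axl at 0.782, while Marco was level at 0.994 (0.877 to 1.13). The median over all genes was 0.944. Of the 8 receptors with a mean of at least 0.5 UMIs, the interval of this ratio lay below 1 for 6 and held 1 for Marco and Olr1. It lay below 1 for 23.3% of the 1123 genes with such a mean.

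In the 25% of cells with the highest mitochondrial share (median 5.90%) these 8 receptors were all at a higher level than in the 25% with the lowest (2.03%), with the interval of the ratio above 1, as for 13.4% of the 1123 genes. The median ratio over all genes was 0.996. Mertk was at 2.57 against 1.80 per 10000, a ratio of 1.43 (1.23 to 1.66), Lrp1 at 1.32 (1.14 to 1.54), Marco at 1.28 (1.13 to 1.45) and Axl at 1.24 (1.12 to 1.38). The intervals of Msr1 and Scarb1 held 1. The cells with the highest mitochondrial share were also shallower, with a median of 2818 against 3056 UMIs, and the part of depth in these ratios was not tested.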

How the data were processed

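Lung AMs of 1 WT mouse were profiled in 1 library. The authors aligned reads and counted UMIs with Cell Ranger 2.1 on mm10, described filters of at least 300 and at most 2500 genes and on mitochondrial content, and used Seurat. The deposited values are the natural log of 1 plus UMIs per 10000, and a scaled score per gene and cell, regressed on UMIs and mitochondrial share. Cells above 5% mitochondrial UMIs (384) were present and were kept. No doublet caller was run. With the log undone, the values were whole multiples of 1 step in each cell (100% of values, tolerance 0.001), which gave UMI counts.

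Shares have exact binomial and levels exact Poisson intervals, and ratios an exact interval given their sum. These cover counting error only, and with 1 library no test was made. Joint detection used the Mantel-Haenszel odds ratio over 10 strata of total UMIs. Named genes are the 10 receptors, the listed pathway genes, and for receptors with a mean of at least 0.5 UMIs the 5 highest and 3 lowest correlated genes, 1 of which is not reported here. The receptors and lists were chosen with earlier results of these data known. Steps were tested on simulated data. Python 3.11.15, numpy 2.4.6, scipy 1.17.1 and pandas 2.3.3 were used. Alternatives changed the cells, depth, detection limit, strata, regression and size of ranges.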

Additional observations from a re-analysis of the deposited data

How the results depend on the processing

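No paired analysis was possible because there is 1 library, and for the same reason no replicate could be left out. With 2 UMIs as the detection limit 1 receptor, not 5, was found in most cells and 11 receptor pairs, not 7, reached an odds ratio of 5 to 4. At 2000 UMIs per cell 2 pairs did, with reversed odds ratios for Marco and Mrc1 (0.970) and Mrc1 and Axl (0.939), and a reversed fold for Msr1 in the MHC class II range (0.758), which rested on 5 UMIs at full depth. Correlated pairs numbered 5, not 3, with at most 5% mitochondrial UMIs, without regression and with the deposited scores. Receptors lower in the cycling range numbered 1 at 2000 UMIs, which was Lrp1 and neither of the 2 of the full data (Cd36 and Axl), and 0 with the top 10% of cells, and those lower in the MHC class II range 0 with the top 10%. In the chemokine range 2 were lower with at most 5% mitochondrial UMIs (Cd36 and Scarb2), 1 at 2000 UMIs and 1 without cycling cells (Scarb2 in both), where the full data gave 0, and 0 were higher with the top 10%. In the lipid handling range 0 were higher with at most 5% mitochondrial UMIs and at 2000 UMIs. The median CV of the 10 receptors was 0.419 at 2000 UMIs, 0.542 in the full data and 0.521 to 0.541 in the other settings, and that of Marco stayed at 1.11 to 1.17. This median includes Msr1 (2.14 in the full data) and Scarb1 (0.862), which did not pass the filter on the mean and which raise it. Fewer cells and UMIs at 2000 per cell are part of that setting's construction; the other causes were not tested. The other 66 alternative values of these summaries moved less, counts by at most 1.5 times and the median CV by at most 0.1. Spread alternatives, the limits of 40% and 0.5 UMIs on pairs and the range without the Jchain-rich cell were added after seeing the data. Depth limits all statements on single cells, and genes near 1 UMI per cell cannot be called absent from a cell.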
